A study of Gallus gallus with 12 samples.

Results

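*IL1RL1* was examined together with 5 other receptor genes of the interleukin-1 and interleukin-18 receptor family, *IL1R1*, *IL1R2*, *IL18R1*, *IL18RAP* and *IL1RAP*, in DT40 cells, a chicken B cell line. The 6 genes were found by their symbols among 24356 genes. *IL1RL1* was selected on its values in these libraries, because it was close to 0 in wild type and expressed in the mutants. The other 5 genes were chosen by family and position, and the question was whether they changed with *IL1RL1* across the lines.

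RNA-seq libraries were made from poly(A)-selected RNA of 12 independent cell populations, 3 each of wild type and the mutant lines *timeless*, *ddx11* and *fancj*. Per the labels, the *timeless* and *ddx11* lines carry disruptions of *TIMELESS* and *DDX11* made with CRISPR-Cas9, and *fancj* is an earlier mutant of the FANCJ helicase gene, which the files name *BRIP1*. Timeless is a component of the replication fork, and DDX11 and FANCJ are related DNA helicases. All lines were grown in the same medium without further treatment. The sources used here do not say which clone of a mutant was sequenced, so an effect of the disrupted gene and a feature of 1 clone cannot be told apart.

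The signalling members of the interleukin-1 receptor family are membrane receptors that share a cytoplasmic TIR domain with the Toll-like receptors and signal through MyD88 to NF-κB. In mammals, IL1R1 is the signalling receptor for interleukin-1, IL1R2 is a decoy receptor, IL1RL1 (ST2) binds interleukin-33, and IL18R1 and IL18RAP together form the receptor for interleukin-18. IL1RAP is the shared accessory chain that IL1R1 and IL1RL1 need in order to signal. In mammals *IL1RL1* is best known from mast cells, type 2 lymphocytes and basophils.

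The targeted genes and the identity of the cells were checked first. *TIMELESS* was at 34.2 to 48.4 TPM in wild type and 21.4 to 24.3 in *timeless*, and *DDX11* was at 10.5 to 15.5 TPM in wild type and 4.53 to 7.03 in *ddx11*. *BRIP1* was at 5.16 to 8.52 TPM in wild type, and at 7.81, 8.47 and 1.23 TPM in replicates 1 to 3 labelled *fancj*, so its level did not separate that group and its libraries are called by their label below. *TIMELESS* was also low in those libraries, at 30.5, 21.3 and 8.88 TPM, so that its level does not mark *timeless* alone. Replicate 3 labelled *fancj* held the lowest *BRIP1* and *TIMELESS* of all 12 libraries. Low values there were not particular to these genes. *DDX11* was at 7.47 TPM in that replicate, beside 14.55 and 15.17 TPM in replicates 1 and 2. Other genes were not low, such as *MRPS9* at 99.44 TPM beside 90.11 and 91.42 TPM. The summed level of B cell markers was 1189 to 1809 TPM in wild type, 1000 to 1532 TPM in *timeless*, 1238 to 1479 TPM in *ddx11* and 519 to 1214 TPM in the libraries labelled *fancj*, and all 11 markers found reached 1 TPM in at least 1 library of every line. Of these markers *IRF4* was lower than in wild type in *ddx11* (log2 fold change -1.63, edgeR adjusted p = 0.034), and *IRF4* and *BCL6* in the libraries labelled *fancj* (-2.16 and -1.57, edgeR adjusted p = 0.016 and 0.032). Their part in the values below was not tested. The total of expected counts per library was 13406041 to 50160512.

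*IL1RL1* (ENSGALG00000016785) was almost silent in wild type and was expressed in every mutant library. Its level was 0.04, 0.04 and 0 TPM in wild-type replicates 1 to 3, from 1, 2 and 0 counts. In *timeless* it was 53.08, 5.31 and 41.15 TPM, in *ddx11* 2.25, 0.38 and 1.48 TPM, and in the libraries labelled *fancj* 6.48, 3.19 and 1.67 TPM. Every mutant library lay above every wild-type library, and *timeless* replicate 2 stood well below the other two *timeless* libraries.

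The line means of *IL1RL1* were 33.2 ± 24.9 TPM in *timeless*, 3.78 ± 2.46 TPM in the libraries labelled *fancj*, 1.37 ± 0.94 TPM in *ddx11* and 0.0267 ± 0.0231 TPM in wild type (SD, n = 3 each). In this order *timeless* and the libraries labelled *fancj* overlapped, as did those labelled *fancj* and *ddx11*, whereas *timeless* and *ddx11* did not. Wild type held 3 *IL1RL1* counts in 81155583. Per total count, *IL1RL1* was 1810-fold higher in *timeless* (95% exact interval 619 to 8780), 194-fold higher in the libraries labelled *fancj* (65.8 to 943) and 58.0-fold higher in *ddx11* (19.5 to 284). These intervals cover counting error only, and the fold is set by the 3 wild-type counts. The fitted log2 fold changes against wild type were 10.50, 7.36 and 5.80 in *timeless*, the libraries labelled *fancj* and *ddx11*. As these contrasts chose the gene and share the wild-type libraries, the values are a description and no test is read from them. In bulk RNA, fewer expressing cells and less RNA per cell cannot be told apart.

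**Figure D1:**
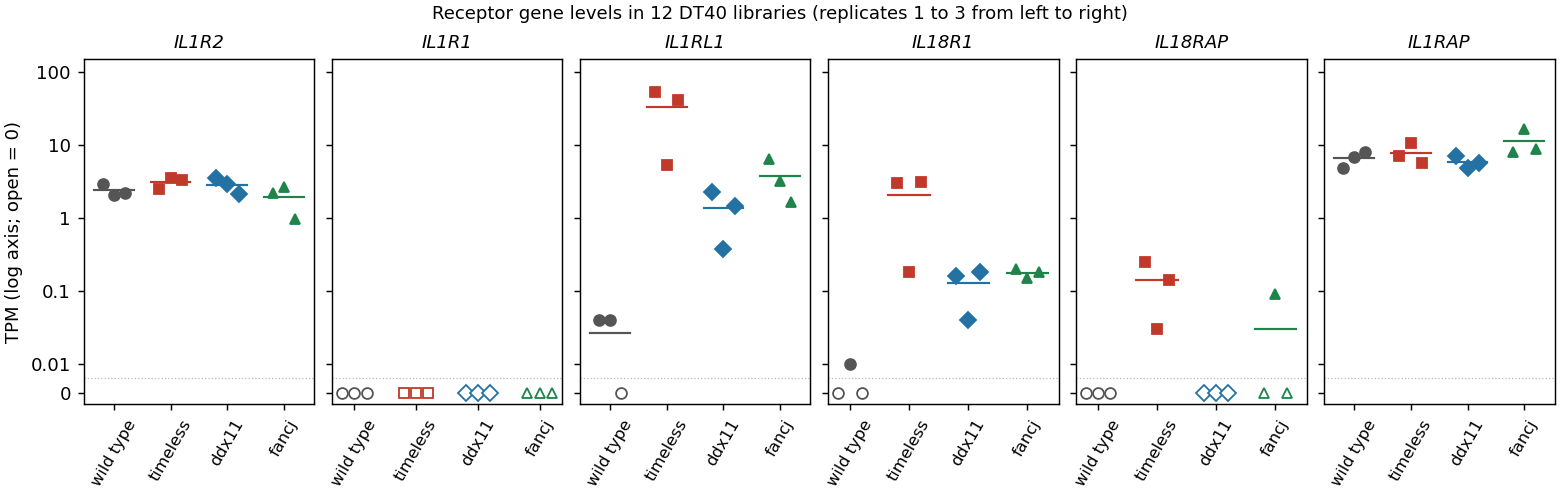
TPM of the 6 receptor genes in 12 libraries, on a log axis with values of 0 drawn as open symbols on the lowest tick. Points are replicates 1 to 3 from left to right, and bars are line means, drawn where the mean was at least 0.01 TPM. *IL1RL1* ran from 0 to 0.04 TPM in wild type and from 0.38 to 53.08 TPM in the mutants, whereas *IL1R2* and *IL1RAP* had at least 0.98 TPM in all libraries.

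The transcripts counted for *IL1RL1* had a similar mean length in the mutants. The abundance-weighted length from RSEM was 2684, 2692 and 2727 bases in *timeless*, 2722, 2466 and 2934 bases in *ddx11*, and 2914, 2779 and 2791 bases in the libraries labelled *fancj*. The lowest of these, in *ddx11* replicate 2, rests on 20 counts.

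Among the mutants, *IL1RL1* was higher in *timeless* than in *ddx11*, with a log2 fold change of 4.75 ± 0.89 (SE, edgeR adjusted p = 0.021). Of all genes tested in this comparison 5.12% were altered, 601 genes, or 1629 with the replicate number as a block. *IL1RL1* was chosen on its mean over the mutants, to which *timeless* contributed most, so this contrast is not fully free of the choice. The edgeR adjusted p was 0.052 without *timeless* replicate 1, 0.064 without *timeless* replicate 3, 0.053 without *ddx11* replicate 1 and 0.084 without *ddx11* replicate 3, with the direction kept each time. These fits did not use the block. With the block and no library left out, the edgeR adjusted p was 3.7e-05.

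Between *timeless* and the libraries labelled *fancj* the log2 fold change of *IL1RL1* was 3.15 ± 0.80 (SE, edgeR adjusted p = 0.13), which did not pass the test. It was past the threshold without the TPM limit (edgeR adjusted p = 0.044), in a fit of all 12 libraries (edgeR adjusted p = 0.033) and with DESeq2 (adjusted p = 0.00081). In this comparison 0.85% of all genes tested were altered, 102 genes, or 247 with the block. Between the libraries labelled *fancj* and *ddx11*, where 0.782% of genes were altered, the log2 fold change of *IL1RL1* was 1.56 ± 0.69 (SE, edgeR adjusted p = 0.37).

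*IL18R1* (ENSGALG00000040621), the ligand-binding chain of the interleukin-18 receptor in mammals and the next gene after *IL1RL1*, was also highest in *timeless* and close to 0 in wild type, at a far lower level. It was at 0, 0.01 and 0 TPM in wild type, from a single count. In *timeless* it reached 2.97, 0.18 and 3.09 TPM, in *ddx11* 0.16, 0.04 and 0.18 TPM, and in the libraries labelled *fancj* 0.2, 0.15 and 0.18 TPM. As for *IL1RL1*, replicate 2 was the low *timeless* library and replicate 2 the low *ddx11* library. Among the libraries labelled *fancj*, *IL1RL1* was lowest in replicate 3, whereas *IL18R1* differed little. Every mutant library exceeded every wild-type library.

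*IL18R1* rose in *timeless* against wild type by a log2 fold change of 8.05 ± 1.36 (SE, edgeR adjusted p = 0.01). Of the 3 members other than *IL1RL1* that could be tested there it was the only one altered, where 8.2% of all genes tested were. It passed the limit of 1 TPM through *timeless* alone, so it had to differ in order to be tested. The edgeR adjusted p was 0.064 without wild-type replicate 2, the library that held the single wild-type count. Over the edgeR alternatives that kept the gene the adjusted p lay between 0.00026 and 0.064, and with DESeq2 it was 3e-07.

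The *IL18R1* counts were 151, 6 and 124 in *timeless*, 7, 3 and 6 in *ddx11* and 9, 4 and 10 in the libraries labelled *fancj*. Per total count this was 398-fold higher in *timeless* than in wild type (95% exact interval 70.9 to 15790), 31.6-fold in the libraries labelled *fancj* (5.13 to 1302) and 18.3-fold in *ddx11* (2.84 to 768). As for *IL1RL1*, these intervals cover counting error only and leave out the spread between libraries. The folds are set by the single wild-type count. In *ddx11* and the libraries labelled *fancj*, *IL18R1* stayed under the TPM limit. Fitted without that limit, its log2 fold change against wild type was 3.95 ± 1.36 in *ddx11* (SE, edgeR adjusted p = 0.18) and 4.55 ± 1.18 in the libraries labelled *fancj* (SE, edgeR adjusted p = 0.067), and neither passed the test.

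Between mutants, *IL18R1* was higher in *timeless* than in *ddx11* by a log2 fold change of 4.26 ± 1.00 (SE, edgeR adjusted p = 0.047). Here too it passed the limit of 1 TPM through *timeless* alone, so it had to differ in order to be tested. This call was lost without any 1 of 5 libraries, *timeless* replicates 1 and 3 and *ddx11* replicates 1, 2 and 3, with adjusted p-values from edgeR of 0.1, 0.13, 0.12, 0.13 and 0.14. Without *timeless* replicate 2 the edgeR adjusted p was 0.00077. These fits did not use the replicate number as a block. With that block and no library left out, the log2 fold change was 3.90 ± 0.53 (SE, edgeR adjusted p = 0.0036). Against the libraries labelled *fancj* the log2 fold change was 3.51 ± 0.99 (SE, edgeR adjusted p = 0.16), and it passed only with DESeq2 (adjusted p = 0.0087) and in the fit of all 12 libraries (edgeR adjusted p = 0.034). With the block this log2 fold change was 3.09 ± 0.83 (SE, edgeR adjusted p = 0.11).

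**Figure D2:**
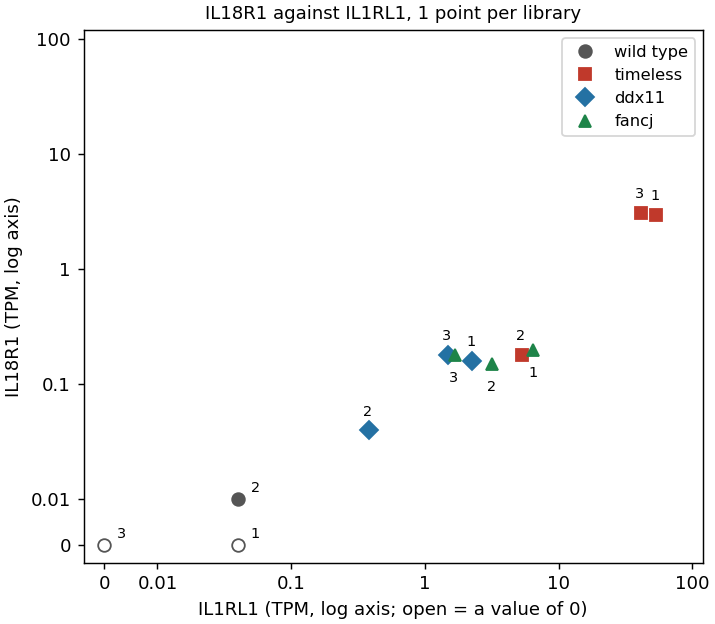
*IL18R1* against *IL1RL1* in TPM, both on log axes, with 1 point per library numbered by replicate and open symbols where a value was 0. The 3 wild-type libraries sit at the lower left with at most 0.04 TPM of *IL1RL1* and 0.01 TPM of *IL18R1*, and *timeless* replicates 1 and 3 at the upper right with 2.97 and 3.09 TPM of *IL18R1*.

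Within a library, the TPM of *IL18R1* made up 3.39 to 7.51% of that of *IL1RL1* in *timeless*. The share was 7.11 to 12.2% for *ddx11* libraries and 3.09 to 10.8% for those labelled *fancj*. The shares in *ddx11* and in those labelled *fancj* rest on 3 to 10 *IL18R1* counts per library. Between *timeless* replicates 1 and 2, *IL1RL1* differed 10.0-fold and *IL18R1* 16.5-fold in TPM, so that both were low in replicate 2, where *IL18R1* held 6 counts. Over the 12 libraries, Pearson's r between *IL18R1* and *IL1RL1* in log2(TPM + 1) was 0.917 and Spearman's rho was 0.903. It was 0.908 over the 10 libraries left without *timeless* replicates 1 and 3. This is a description over libraries that share their lines, with *IL18R1* close to 0 in most of them.

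*IL18RAP* (ENSGALG00000016788), the accessory chain of the interleukin-18 receptor in mammals, lies next after *IL18R1* and had at least 1 count in 4 of 12 libraries. It held 11, 1 and 5 counts in *timeless* (0.25, 0.03 and 0.14 TPM) and 2 counts in replicate 2 labelled *fancj* (0.09 TPM). All wild-type and *ddx11* libraries were at 0. The 1 count in *timeless* replicate 2 and the 2 counts in replicate 2 labelled *fancj* were under the floor of 3 counts. With 3 counts over a group as the floor, the 17 counts in *timeless* were 8.03-fold above wild type and 7.02-fold above *ddx11* per total count. These folds take the 17 counts as exact, without their counting error or the spread of 11, 1 and 5 between libraries. *IL18RAP* was under the TPM limit in every line. Without that limit the edgeR adjusted p was 0.069 against wild type and 0.088 against *ddx11*. Without *timeless* replicate 2 it was 0.026 and 0.015, and without each of the other 5 libraries it was 0.08 to 0.24 against wild type and 0.15 to 0.26 against *ddx11*.

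*IL1R1* (ENSGALG00000043044) had no count in any library. A count of 0 allows up to 0.0485 to 0.202 TPM per library, taking 3 counts as the limit, so no difference between lines could be detected at this depth. *IL1R1* and *IL1R2* lie on the opposite side of *IL1RL1* from *IL18R1* and *IL18RAP*.

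*IL1R2* (ENSGALG00000046326), the decoy receptor, was expressed at a low level in all lines. It was at 2.89, 2.08 and 2.17 TPM in wild type, 2.5, 3.53 and 3.29 TPM in *timeless*, 3.48, 2.91 and 2.12 TPM in *ddx11*, and 2.21, 2.64 and 0.98 TPM in the libraries labelled *fancj*. The 4 lines overlapped. Its log2 fold change against wild type was 0.47 ± 0.30 in *timeless* (SE, edgeR adjusted p = 0.42), 0.19 ± 0.27 in *ddx11* (SE, edgeR adjusted p = 0.83) and -0.32 ± 0.36 in the libraries labelled *fancj* (SE, edgeR adjusted p = 0.7). The expected counts of *IL1R2* were whole numbers in 1 of 12 libraries, so part of its reads was shared with other genes and its values are less certain, whereas those of the other 5 genes were whole in all 12.

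*IL1RAP* (ENSGALG00000007253), the shared accessory chain, lies on another chromosome and was the highest in TPM of the 6 genes in wild type. It was at 4.78, 6.92 and 8.02 TPM in wild type, 7.13, 10.5 and 5.6 TPM in *timeless*, 7.02, 4.81 and 5.64 TPM in *ddx11*, and 8.09, 16.71 and 8.68 TPM in the libraries labelled *fancj*. The latter lay above all wild-type libraries, at 8.09 against 8.02 TPM for the closest libraries, and the other lines overlapped with wild type. Against wild type its log2 fold change was 0.28 ± 0.32 in *timeless* (SE, edgeR adjusted p = 0.68), -0.24 ± 0.25 in *ddx11* (SE, edgeR adjusted p = 0.76) and 0.77 ± 0.35 in the libraries labelled *fancj* (SE, edgeR adjusted p = 0.33). None of these passed the test. Thus *timeless*, the line with the highest *IL1RL1*, had an *IL1RAP* mean of 7.74 ± 2.51 TPM beside 6.57 ± 1.65 TPM in wild type (SD, n = 3 each).

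**Figure D3:**
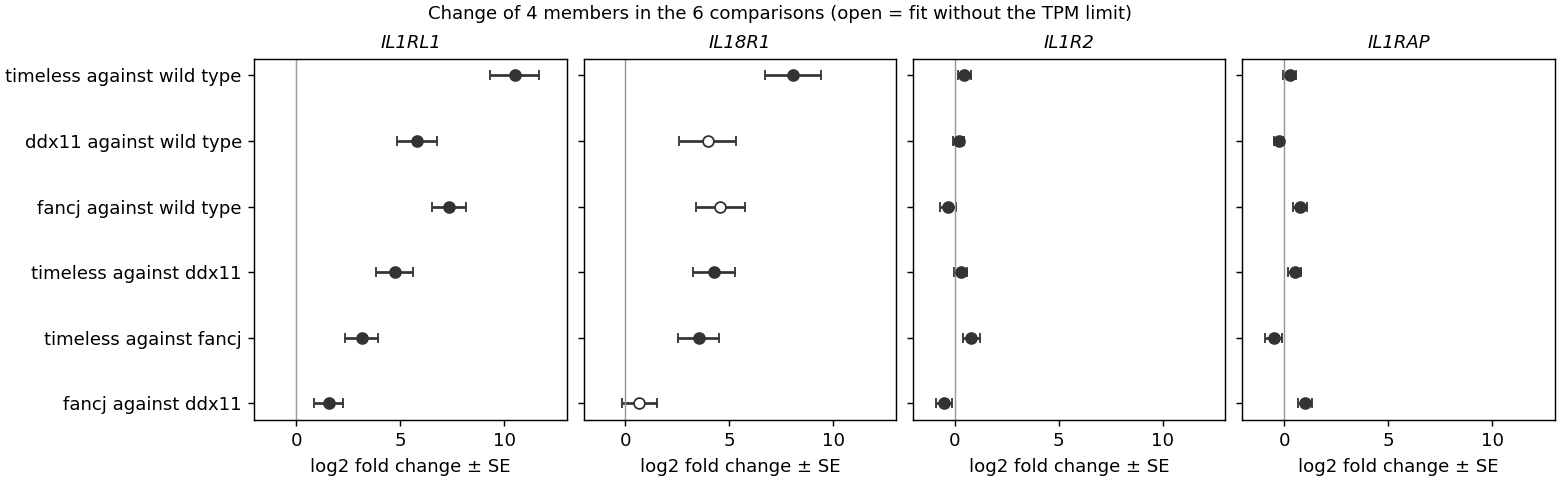
Log2 fold change with its SE (horizontal bars) of 4 receptor genes in the 6 comparisons, from edgeR. Open symbols are fits without the TPM limit, used where *IL18R1* was under it. *IL1RL1* and *IL18R1* lie at 10.50 and 8.05 in *timeless* against wild type, and *IL1R2* and *IL1RAP* at 0.47 and 0.28. The values of *IL1RL1* against wild type are a description, since they chose the gene.

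Against wild type, none of the 2 members tested apart from *IL1RL1* (*IL1R2* and *IL1RAP*) was altered in *ddx11*, where 2.62% of all genes were, or in the libraries labelled *fancj*, where 4.28% were. By the count of genes with every mutant library above every wild-type library, 2 of the other 5 members did so in *timeless* (*IL18R1* and *IL18RAP*), 1 in *ddx11* (*IL18R1*) and 2 in the libraries labelled *fancj* (*IL18R1* and *IL1RAP*). Over all genes with a count this share was 11.0% in *timeless*, 9.66% in *ddx11* and 12.6% in the libraries labelled *fancj*, and *IL1R1* had no count to compare. For *IL18RAP* the order in *timeless* rested on 1 count in replicate 2.

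The genes around the cluster were read in the order of the GRCg7b assembly, which differs from the build of the files and was used for order alone. In that order 5 of the 6 members lie near each other, *IL1R2*, *IL1R1*, *IL1RL1*, *IL18R1* and *IL18RAP*, with *IL1RL2* between *IL1R1* and *IL1RL1*. Of the 16 other named genes among the 10 on each side, 11 were matched by symbol. *SLC9A4*, a sodium/proton exchanger gene next after *IL18RAP*, was at 0 TPM in 9 libraries and at 0.03, 0.1 and 0.07 TPM in *timeless* replicate 1 and in replicates 2 and 3 labelled *fancj*. *SLC9A2*, the next exchanger gene, was at 0 to 0.12 TPM, and *MAP4K4*, the closest matched gene on the *IL1R2* side, at 0 to 0.06 TPM. *SLC9A4*, *SLC9A2* and *MAP4K4* did not reach the level of *IL18R1* in *timeless* replicates 1 and 3 in any library. In the other mutant libraries *IL18R1* was itself at 0.04 to 0.2 TPM, a range that these genes also reached. Of the other matched genes too low to be tested, *POU3F3* was at 0 to 0.7 TPM, highest in *ddx11* replicate 3. *TMEM182* was at 0 to 0.06 TPM and *RFX8* at 0 TPM in all libraries.

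*RNF149*, *CREG2*, *MFSD9*, *MRPS9* and *TGFBRAP1* were the 5 neighbours expressed highly enough to be tested. None was altered in any of the 6 comparisons by edgeR. Over all genes 8.2%, 2.62% and 4.28% were altered in *timeless*, *ddx11* and the libraries labelled *fancj* against wild type. Between mutants the shares were 0.782 to 5.12%. With 5 genes, no call is close to these shares and shows nothing particular to the neighbours. In *timeless* against wild type 1 of the 5 neighbours, *CREG2*, had an unadjusted p under 0.05, and DESeq2 called 1 of the 5. *CREG2* was at 0.44, 1.34 and 1.01 TPM in wild type and 3.07, 5.69 and 2.43 TPM in *timeless*, a log2 fold change of 1.98 ± 0.57 (SE, edgeR adjusted p = 0.075). It was highest in *timeless* replicate 2, the library in which *IL1RL1* was lowest of the 3. *CREG2* measured 0.89, 2.07 and 2.74 TPM for *ddx11*, which overlapped with wild type. The values of 2.8, 1.57 and 1.8 TPM for *fancj* by label all exceeded wild type. Its log2 fold change against wild type was 0.95 ± 0.61 for *ddx11* (SE, edgeR adjusted p = 0.64). For *fancj* by label this was 1.11 ± 0.62 (SE, edgeR adjusted p = 0.44). *CREG2* thus shared its direction with *IL1RL1* in each mutant, without passing the test. In the other 5 comparisons no tested neighbour had an unadjusted p under 0.05 and DESeq2 called 0. Of a wider list of 17 genes that flank the human cluster, 16 were found and 7 tested. None of the 7 was altered by edgeR, which is also close to the shares over all genes. In this list DESeq2 called 1 in *timeless* against wild type, where 2 had an unadjusted p under 0.05.

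**Figure D4:**
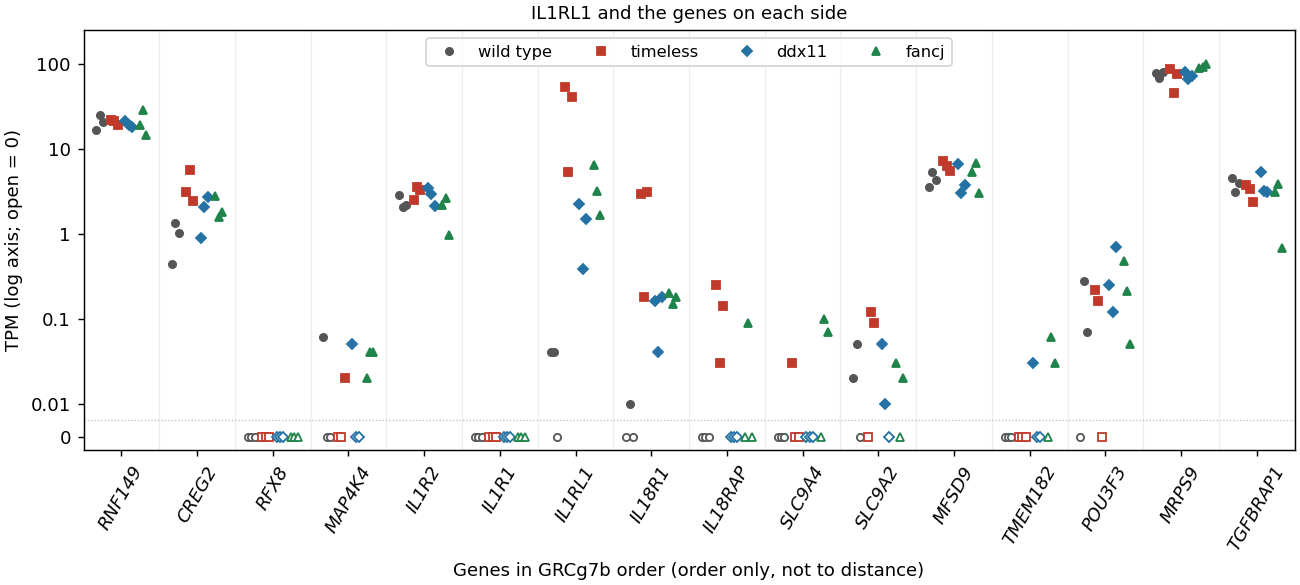
TPM on a log axis of *IL1RL1* and the genes on each side that were matched by symbol, in GRCg7b order and not to distance. Each point is 1 library, and values of 0 are open symbols on the lowest tick. *IL1RL1* and *IL18R1* reached 53.08 and 3.09 TPM in *timeless*. *IL18RAP* reached 0.25 TPM there, close to *POU3F3* at 0.22 TPM, while *SLC9A4*, the gene next after *IL18RAP*, was at 0.03 TPM at most in *timeless*.

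The genes whose pattern over the 12 libraries was most like that of *IL1RL1* included *NAAA*, *STAT4*, *ASPG* and *IRF8*, among 6824 named genes that averaged 10 TPM or more in some line. Pearson's r in log2(TPM + 1) was 0.907, 0.906, 0.897 and 0.891, and 0.733, 0.781, 0.806 and 0.741 over the 10 libraries without *timeless* replicates 1 and 3. *STAT4*, a signal transducer of cytokine receptors, had a mean of 0.283 TPM in wild type, 36.6 TPM in *timeless*, 0.943 TPM in *ddx11* and 2.43 TPM in the libraries labelled *fancj*. *IRF8*, a transcription factor of B and myeloid cells, had means of 101, 754, 303 and 206 TPM in the same order. Both were highest in *timeless*, which follows largely from their choice by likeness to *IL1RL1* over the same libraries. *NAAA*, which encodes a lysosomal amidase, ranged from 3 to 4.17 TPM in wild type and from 17.98 to 26.17 TPM in *timeless*. The corresponding r with *IL1RL1* was 0.855 for *IL18RAP*, 0.246 for *IL1R2* and 0.111 for *IL1RAP*. Without *timeless* replicates 1 and 3 it was 0.406, 0.14 and 0.573 in the same order. The higher r of *IL18RAP* than of *IL1RAP* thus rested on those libraries.

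The rest of the pathway was read from 5 lists of ligands, related receptors, adaptors and kinases, NF-κB factors, and known output genes of interleukin-1 or interleukin-33 signalling, which together held 96 names, of which 69 were found. Of these, 1 was higher and 2 were lower among 50 tested in *timeless* against wild type, 0 of 48 were altered in *ddx11*, and 1 was higher and 1 lower among 49 in the libraries labelled *fancj*. These counts compare with the background shares of 8.2%, 2.62% and 4.28% given above. For the 0 in *ddx11*, 4 genes had an unadjusted p under 0.05 with edgeR and DESeq2 called 2. Between mutants 1 was higher and 1 lower of 50 in *timeless* against *ddx11*, where 5.12% of all genes were altered. Of 49 tested, 0 were altered in *timeless* against the libraries labelled *fancj*, beside 0.85% of all genes. There edgeR gave an unadjusted p under 0.05 for 2 and DESeq2 called 0. In those labelled *fancj* against *ddx11* 0 of 49 were altered, beside 0.782% of all genes. There edgeR gave an unadjusted p under 0.05 for 8 and DESeq2 called 4. All these edgeR counts are near the edgeR shares over all genes. DESeq2 called 8 in *timeless* and 5 in the libraries labelled *fancj* against wild type, and 3 in *timeless* against *ddx11*. In the same order 9, 9 and 8 had an unadjusted p under 0.05 with edgeR. Of all genes DESeq2 called 1499 of 11653, 1319 of 11824 and 1182 of 11736 in that order. In *ddx11* against wild type it called 547 of 11470, and in those labelled *fancj* against *ddx11* 836 of 11897.

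Of 13 ligand names, 1 was matched by symbol, *IL1B*, which encodes the cytokine interleukin-1β. It was at 0.1 to 0.76 TPM in all libraries and was not tested, and the highest value was in *ddx11* replicate 2.

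*TLR4*, the receptor for lipopolysaccharide and a TIR-domain relative of the family, rose in *timeless* by a log2 fold change of 5.77 ± 1.02 (SE, edgeR adjusted p = 0.013) and in the libraries labelled *fancj* by 5.40 ± 1.13 (SE, edgeR adjusted p = 0.046). It was at 0, 0.09 and 0.02 TPM in wild type, 0.82, 6.08 and 1.46 TPM in *timeless*, 0.32, 0.21 and 0.05 TPM in *ddx11*, and 0.4, 4 and 1.92 TPM in the libraries labelled *fancj*. Unlike *IL1RL1*, it was highest in *timeless* replicate 2. It was also higher in *timeless* than in *ddx11*, with a log2 fold change of 3.94 ± 0.86 (SE, edgeR adjusted p = 0.037). In these 3 comparisons *TLR4* passed the limit of 1 TPM only through the line in which it was high, so it had to differ in order to be tested. *TLR7*, a receptor for single-stranded RNA, was lower in *timeless* than in *ddx11*, with a log2 fold change of -2.14 ± 0.23 (SE, edgeR adjusted p = 0.002). It was at 1.71 to 1.82 TPM in *timeless* and 7.96 to 9.21 TPM in *ddx11*. Wild type, at 17.49, 3.23 and 4.45 TPM, spanned the *ddx11* values. The libraries labelled *fancj*, at 3.34, 1.83 and 1.77 TPM, overlapped with *timeless*. *TLR7* was not called in the other comparisons.

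Among 25 adaptors and kinases tested, *TOLLIP*, which encodes a negative regulator of TIR receptor signalling, fell in *timeless* against wild type, with a log2 fold change of -0.74 ± 0.17 (SE, edgeR adjusted p = 0.034). It was at 37.4 to 39.3 TPM in wild type and 18.4 to 29.2 TPM in *timeless*. None of 11 NF-κB factors and inhibitors was altered by edgeR in any comparison. With 11 genes this is close to the shares over all genes, 0.782 to 8.2%. In *timeless* and *ddx11* against wild type none had an unadjusted p under 0.05 and DESeq2 called 0. In the libraries labelled *fancj* against wild type both counts were 1.

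Of the output genes, *LITAF*, whose product regulates tumour necrosis factor expression, fell in *timeless* by 1.73 on the log2 scale (SE 0.27, edgeR adjusted p = 0.0074) and in the libraries labelled *fancj* by 2.18 (SE 0.33, edgeR adjusted p = 0.017). It was at 49 to 94.2 TPM in wild type and 13.2 to 22.2 TPM in *timeless*. In *ddx11* it was at 27.79 to 46.35 TPM and in the libraries labelled *fancj* at 12.8 to 15.2 TPM. Each mutant lay below wild type, while *timeless* and the libraries labelled *fancj* overlapped. The share of all genes with every mutant library below wild type was not counted. *LITAF* was the only output gene altered by edgeR, among 8 tested in *timeless* and 7 in the libraries labelled *fancj* against wild type. Over all genes 8.2% and 4.28% were altered there. In each of these comparisons 3 output genes had an unadjusted p under 0.05, and DESeq2 called 3 in *timeless* and 1 in the libraries labelled *fancj*.

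Mast cell and basophil markers were low in sum. Of 6 mast cell or basophil markers, 4 were found, with a summed level of 3.71 to 10.79 TPM in wild type, 3.83 to 6.59 TPM in *timeless*, 3.71 to 6.54 TPM in *ddx11* and 0.66 to 5.85 TPM in the libraries labelled *fancj*. *KIT*, the stem cell factor receptor, was at 0.17 TPM at most. *HDC*, the histamine-forming enzyme, was at 0.4 TPM at most and *GATA2* at 1.27 TPM at most. These genes made up little of the sum in wild type and *timeless*, which came mostly from the 1 other marker found. It was the only marker tested. Against wild type its log2 fold change was -0.22 in *timeless*, -0.54 in *ddx11* and -0.71 in the libraries labelled *fancj*. EdgeR did not call it altered in any comparison. The part of these markers in the *IL1RL1* values was not tested.

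The 10 T cell markers were all found, with a summed level of 163 to 234 TPM in wild type, 75.98 to 146 TPM in *timeless*, 144 to 162 TPM in *ddx11* and 106 to 143 TPM in the libraries labelled *fancj*. *CD3D*, a chain of the T cell receptor complex, made up much of this sum, at 155 to 215 TPM in wild type and 50.5 to 121 TPM in the mutants, and was called lower in *ddx11* (log2 fold change -1.43, edgeR adjusted p = 0.0091). *CD3E*, another chain of that complex, was at 1.51 TPM at most, and *GATA3*, a factor of type 2 lymphocytes, at 0.89 TPM at most. *CD5*, a surface receptor of T cells and some B cells, was higher than in wild type in all 3 mutants, with log2 fold changes of 1.70 in *timeless* (edgeR adjusted p = 0.028), 3.27 in *ddx11* (edgeR adjusted p = 0.0034) and 2.93 in the libraries labelled *fancj* (edgeR adjusted p = 0.017). Unlike *IL1RL1*, it was lowest of the mutants in *timeless*. The part of these markers in the *IL1RL1* values was not tested.

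Of 9 myeloid markers, 7 were found, with a summed level of 80.9 to 153 TPM in wild type, 117 to 195 TPM in *timeless*, 120 to 123 TPM in *ddx11* and 152 to 187 TPM in the libraries labelled *fancj*. Their part in the *IL1RL1* values was not tested. The defining receptors *CSF1R* and *CSF3R* were at 0.07 TPM or less in wild type and in *timeless* replicates 1 and 3. *CSF1R* was at 0.26 TPM in *timeless* replicate 2. In replicates 1 to 3 labelled *fancj*, *CSF1R* was at 0.54, 3.67 and 1.09 TPM and *CSF3R* at 0, 1.61 and 0.57 TPM. Against wild type, 2 of 5 myeloid markers tested were called higher there, where 4.28% of all genes were altered. These included *CSF1R* (log2 fold change 5.57, edgeR adjusted p = 0.045), which passed the limit of 1 TPM through those libraries alone. None of 3 tested was altered in *timeless* or *ddx11*.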

How the data were processed

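Expected counts, TPM and FPKM per gene were deposited for each library. Per the labels and the methods of the study, the authors used Bowtie 2 for alignment to GRCg6a and RSEM for quantification on an Ensembl annotation, whose gene identifiers are used here. The deposited expected counts are RSEM estimates that need not be whole and are not normalized for depth. TPM, as deposited, is relative to gene length with an equal sum in every library. The deposited FPKM, relative to length and depth, was not used. Tool versions and the use of strand are not given in the sources used here, so reads of overlapping genes on opposite strands cannot be told apart. Totals were 13406041 to 50160512 counts per library, and a count of 3 was taken as the floor.

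Lines and replicate numbers came from the labels. Expected counts were rounded, and edgeR 4.0.16 (TMM, quasi-likelihood test) was run in R 4.3.3 on the 6 libraries of each pair of lines, with Benjamini-Hochberg adjustment over all genes that averaged 1 TPM or more in either line. Genes were called altered at an adjusted p under 0.05. The SE is the absolute log2 fold change divided by the square root of F. Alternatives were the 1 TPM limit in both lines, no TPM limit, filterByExpr, DESeq2 size factors, the Wald test of DESeq2 1.42.0, a replicate block, all 12 libraries in 1 fit and leaving out each replicate. The test was also run on simulated counts. Block and leave-one-out fits without the TPM limit, for genes under it, were chosen after seeing the data.

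The members and lists were chosen with earlier results of these data known. Named were the 6 members, the 5 genes of at least 10 TPM in a line with the highest r to *IL1RL1*, the 10 genes on each side of it in GRCg7b, and altered genes of the pathway lists; other genes are named to show a cell type or after their values were seen. A few genes that these rules name are not reported here.

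Same-numbered libraries were checked for shared deviations from their line means. Each correlation was over 0.1 between *timeless* and *ddx11* (0.306, 0.442 and 0.239) and between *timeless* and *fancj* (0.281, 0.12 and 0.383). The numbers were read as pairs there only in the fits with the replicate block. The main and leave-one-out fits did not use the block. The pairing rests on these values, since the labels give only the numbers. With the replicate block, the genes altered numbered 1629 in place of 601, and 247 in place of 102.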

Additional observations from a re-analysis of the deposited data

How the results depend on the processing

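Of the members' log2 fold changes, 295 values under alternatives kept their direction and call, 14 lost the call, 7 gained it and 1 reversed. This tally includes *IL1RL1* against wild type, from which no test is read. It also includes values that were not called and stayed so, and it leaves out settings in which a gene was not tested. It is therefore no measure of how stable the calls were. The number of members altered other than *IL1RL1* in *timeless* against wild type was 1, and 0 with the limit of 1 TPM in both lines or with filterByExpr, which leave *IL18R1* out. It was 0 to 1 when each replicate was left out. In *timeless* against *ddx11* it was 2, *IL1RL1* included, and 1 with the limit in both lines and with filterByExpr, and 0 to 2 when each replicate was left out. In *timeless* against *fancj* it was 0, but 1 without the TPM limit, 2 with DESeq2 and 2 with all 12 libraries in 1 fit. The fold change of *IL1RAP* in *timeless* against wild type was -0.061 to 0.463 when each replicate was left out, and the negative value came without *timeless* replicate 2. The cause was not tested.

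The replicate block changed no member's call. With it the log2 fold change of *IL1RL1* in *timeless* against *ddx11* was 4.58 (edgeR adjusted p = 3.7e-05). For the other 4 comparisons the numbers are only labels, and the block moved the genes altered in *ddx11* against wild type from 301 to 142. With the limit of 1 TPM in both lines the genes altered numbered 611, 153 and 116 for *timeless*, *ddx11* and *fancj* against wild type, in place of 955, 301 and 506, and with DESeq2 they were 1499, 547 and 1319. Between mutants the same settings gave 257 and 1182 for *timeless* against *ddx11*, in place of 601, and 13 and 847 for *timeless* against *fancj*, in place of 102, and 10 and 836 for *fancj* against *ddx11*, in place of 93. Without the TPM limit they were 514 in *ddx11* against wild type, 265 in *timeless* against *fancj* and 319 in *fancj* against *ddx11*, and with all 12 libraries in 1 fit 172 in *ddx11* and 1030 in *fancj* against wild type, then 802 in *timeless* against *fancj* and 500 in *fancj* against *ddx11*. When each replicate was left out they ranged from 349 to 957, 98 to 462 and 45 to 864 against wild type, from 189 to 676 in *timeless* against *ddx11*, from 0 to 242 in *timeless* against *fancj* and from 3 to 491 in *fancj* against *ddx11*. Genes with few counts, such as *IL18R1* and *IL18RAP* in *ddx11* and *fancj*, are limited by depth.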

Other observations

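A few genes named after their values were seen differ between replicates of a line. *CEBPB*, a transcription factor of myeloid and activated cells, was at 1.34, 47.81 and 2.01 TPM in *timeless*, 2.18, 21.75 and 3.4 TPM in *ddx11*, 8.69, 47.66 and 45.85 TPM in the libraries labelled *fancj*, and 2.5, 8.69 and 6.25 TPM in wild type. *PELI2*, whose product takes part in interleukin-1 receptor signalling, was at 3.44, 16.85 and 2.43 TPM in *timeless*, 4.17, 12.15 and 3.74 TPM in *ddx11*, 12.1, 10.66 and 2.97 TPM in the libraries labelled *fancj*, and 1.66, 2.4 and 2.13 TPM in wild type. Both were highest in replicate 2 of *timeless* and of *ddx11*, the replicate in which *IL1RL1* was lowest in each. In the libraries labelled *fancj*, *PELI2* was instead highest in replicate 1 and lowest in replicate 3, as *IL1RL1* was. *SIGIRR*, an inhibitory receptor of the family, was at 1.01 and 0.68 TPM in replicates 2 and 3 labelled *fancj* and at 0.03 TPM or less in the other 10 libraries.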
